A study of Homo sapiens with 4 samples.

Results

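The genes examined here encode the front end of interferon signaling: the receptor chains IFNAR1, IFNAR2, IFNGR1 and IFNGR2, the kinases JAK1, JAK2 and TYK2, and the transcription factors STAT2 and STAT3. They were chosen by function as 9 of the 19229 protein-coding genes on the chromosomes with loops. Their loops were those with an annotated transcript start of the gene inside a 5 kb anchor, which gave 31 of 27289 loops in the WT list and 28 of 25621 loops in the STAG2-KD list. STAT3 (12 WT and 9 STAG2-KD loops) and STAT2 (7 and 8) had the most when every annotated start was counted, and IFNGR1 and JAK2 had 0 in both lists. The 3 receptor genes that lie together on chromosome 21 had 6 WT loops and 7 STAG2-KD loops with 1 in common, where 41.2% of WT and 43.4% of STAG2-KD loops at all protein-coding starts were shared. Counting starts within 5 kb of an anchor gave these genes 10 and 11 loops, 4 of them shared.

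Type I interferons bind a receptor made of IFNAR1 and IFNAR2, and interferon gamma binds a receptor made of IFNGR1 and IFNGR2. TYK2 and JAK1 sit on the type I receptor chains, and JAK1 and JAK2 on the interferon gamma receptor chains. The kinases phosphorylate STAT proteins, which move to the nucleus, where STAT2 works in a complex with IRF9. STAT3 is best known as the STAT of the interleukin-6 family. In melanoma cells this pathway raises antigen presentation and PD-L1.

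M14 is a human melanoma line, and the cells of both groups held a hairpin targeting the cohesin subunit STAG2 that doxycycline switches on, and were kept under puromycin. Cells given doxycycline for 5 days formed the STAG2-KD group, and cells without it formed the WT group, so an effect of doxycycline and one of the knockdown cannot be told apart here. In HiChIP, neighboring chromatin is ligated and then pulled down, in this case with an antibody to the active mark H3K27ac, and a loop is a pair of regions ligated more often than the caller's background. The labels listed 2 samples per group, and 1 loop list per group, filed under the first sample, was analysed. The lists give positions only, so a loop missing from a list may have been just short of the caller's limit, and no difference between the lists had a replicate check. The knockdown itself could not be checked, since STAG2 lies on chromosome X, which has no loops in the lists. Of 8 genes that mark melanocytic cells, 7 had a loop in WT and 6 in STAG2-KD. TYR had 0 in both lists and DCT had 3 in WT and 0 in STAG2-KD. Loops also stood at 1 of 2 keratinocyte markers (KRT14) and 1 of 3 fibroblast markers (DCN) in each list.

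Promoters of genes whose loops are described closely are printed from the hg19 sequence, 250 bases before to 50 bases after the start of the Ensembl canonical transcript. IFNAR1 and IFNGR2 come first, from the chromosome 21 receptor cluster. STAT2 follows, the gene with the most shared loops, and IFNGR1 and JAK2, the genes without loops, close the set. Capitals mark matches to GGGCGG (GC box) on either strand.

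IFNAR1, chr21:34697025-34697324, plus strand: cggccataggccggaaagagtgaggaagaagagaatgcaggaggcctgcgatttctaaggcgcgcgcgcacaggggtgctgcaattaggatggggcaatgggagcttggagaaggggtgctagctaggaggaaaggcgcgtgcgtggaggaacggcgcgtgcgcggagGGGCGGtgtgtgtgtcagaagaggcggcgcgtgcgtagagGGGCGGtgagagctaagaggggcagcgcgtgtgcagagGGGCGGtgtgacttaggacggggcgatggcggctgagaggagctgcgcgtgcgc

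IFNGR2, chr21:34775469-34775768, plus strand: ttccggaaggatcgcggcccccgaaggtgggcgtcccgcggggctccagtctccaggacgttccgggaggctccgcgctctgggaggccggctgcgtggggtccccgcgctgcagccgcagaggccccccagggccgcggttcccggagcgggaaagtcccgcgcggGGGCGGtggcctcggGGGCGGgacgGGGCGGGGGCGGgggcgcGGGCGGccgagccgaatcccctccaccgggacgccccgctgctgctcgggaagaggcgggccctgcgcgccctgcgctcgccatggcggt

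STAT2, chr12:56753842-56754141, minus strand: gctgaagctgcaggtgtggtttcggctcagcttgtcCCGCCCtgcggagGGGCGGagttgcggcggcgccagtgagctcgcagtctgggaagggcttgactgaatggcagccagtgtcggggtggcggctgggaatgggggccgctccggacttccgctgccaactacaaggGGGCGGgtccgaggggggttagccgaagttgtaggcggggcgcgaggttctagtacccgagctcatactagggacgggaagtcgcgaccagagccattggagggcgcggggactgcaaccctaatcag

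IFNGR1, chr6:137540473-137540772, minus strand: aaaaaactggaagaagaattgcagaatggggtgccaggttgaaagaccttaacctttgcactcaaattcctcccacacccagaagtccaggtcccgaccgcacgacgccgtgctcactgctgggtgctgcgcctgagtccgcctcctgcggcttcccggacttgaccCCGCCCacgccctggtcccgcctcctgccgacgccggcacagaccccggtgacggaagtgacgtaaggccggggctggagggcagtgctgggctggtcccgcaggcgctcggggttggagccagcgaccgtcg

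JAK2, chr9:4985022-4985321, plus strand: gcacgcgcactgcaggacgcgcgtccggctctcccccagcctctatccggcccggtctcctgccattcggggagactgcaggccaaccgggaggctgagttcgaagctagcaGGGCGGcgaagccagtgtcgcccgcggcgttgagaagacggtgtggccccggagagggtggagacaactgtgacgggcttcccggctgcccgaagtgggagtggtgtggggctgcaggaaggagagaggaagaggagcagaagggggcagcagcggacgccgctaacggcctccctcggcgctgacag

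The GC content of the 9 promoters ran from 63.0% at TYK2 to 80.0% at IFNGR2, and the median over 18978 protein-coding promoters of the same length was 63.7%. GGGCGG was found in 8 of the 9, TYK2 being the one without it, and in 61.8% of all promoters. JAK1 held 6 matches, of which neighbors overlapped, and IFNGR2 held 5. The letters GAAANNGAA, part of the interferon-stimulated response element, and TTCNNNGAA, the site that STAT dimers bind, were in none of the 9 windows on either strand, and in 7.0% and 6.62% of all promoters. At the genes without loops, IFNGR1 had 65.3% GC and 25 CpG dinucleotides, JAK2 had 69.0% and 28, and STAT2, with the most shared loops, had 66.3% and 25.

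The first comparison asked which of the 9 genes looped in each state. A loop was found at 7 of the 9 genes in WT and at the same 7 in STAG2-KD, where 39.1% and 36.8% of all protein-coding genes had one. The 2 genes without a loop in either list stand beside 55.5% of all genes. A shared loop, with the same bins at both anchors, was found at 4 of the 9 genes (24.7% of all genes). A WT-only loop was found at 7 (32.3% of all genes) and a STAG2-KD-only loop at 6 (28.9% of all genes), TYK2 being the gene that had the first and not the second. STAT3 and STAT2 ranked high among all genes, since 0.926% of genes had at least 12 loops in WT and 4.25% had at least 7, and in STAG2-KD 2.15% had at least 9 and 2.96% had at least 8. The place of STAT3 rested on starts inside the gene: with starts of protein-coding transcripts alone it had 4 loops in WT and 3 in STAG2-KD, and with the canonical start alone 4 and 2, fewer than STAT2, which kept 7 and 8 under both.

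**Figure D1:**
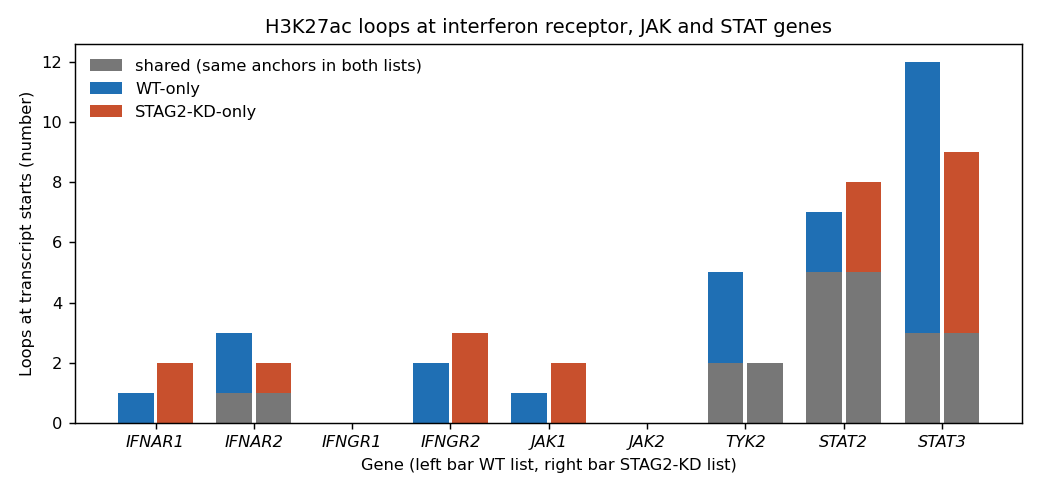
Number of loops at the annotated transcript starts of each gene, with the WT list as the left bar and the STAG2-KD list as the right bar, divided into shared loops (grey) and loops of one list (colored). STAT3 has 12 and 9 loops and STAT2 has 7 and 8, IFNGR1 and JAK2 have none, and the IFNAR1, IFNGR2 and JAK1 bars have no shared part; each bar is 1 list, so there are no error bars.

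In WT the order of loop numbers was STAT3 (12, exact Poisson interval 6.2 to 21), STAT2 (7, 2.81 to 14.4), TYK2 (5, 1.62 to 11.7), IFNAR2 (3, 0.619 to 8.77), IFNGR2 (2), JAK1 and IFNAR1 (1 each, 0.0253 to 5.57) and IFNGR1 and JAK2 (0, upper limit 3.69). In STAG2-KD it was STAT3 (9, 4.12 to 17.1), STAT2 (8, 3.45 to 15.8), IFNGR2 (3), a group of IFNAR1, IFNAR2, JAK1 and TYK2 (2 each, 0.242 to 7.22), and IFNGR1 and JAK2 (0). Neighbors in both orders had overlapping intervals, and so did the WT and STAG2-KD counts of each gene. These intervals treat the loops of a gene as independent, although several often leave the same anchor, so they were no test between genes. The interval of STAT3 lay above those of IFNGR1 and JAK2 in each list, and in WT also above those of IFNAR1 and JAK1. With starts of protein-coding transcripts alone the STAT3 intervals were 1.09 to 10.2 and 0.619 to 8.77, and overlapped all of these. Among the 7 genes with loops in both lists, IFNAR1, IFNGR2 and JAK1 had at least 1.5 times as many loops in STAG2-KD, against 21.9% of all genes with loops in both lists, and IFNAR2 and TYK2 had at least 1.5 times as many in WT, against 28.1%. These differences were of 1 to 3 loops, and several ended under other settings. With starts within 5 kb of an anchor IFNGR2 had 6 and 7 loops and IFNAR2 had 5 and 5. In the earlier 50% of lines, taken within each chromosome of a list, IFNAR1 and JAK1 had 1 in each list and IFNGR2 had 0 in each. IFNAR2 then turned to 1 in WT and 2 in STAG2-KD.

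Across the 9 genes there were 11 shared loops, 20 found in WT alone and 17 found in STAG2-KD alone. Shared loops made up 35.5% of those in WT (exact Clopper-Pearson interval 19.2 to 54.6) and 39.3% of those in STAG2-KD (21.5 to 59.4). Over all loops at protein-coding starts the shares were 41.2% (40.4 to 42.0) and 43.4% (42.6 to 44.2), inside the intervals of the members. Sharing was uneven between the genes. STAT2 held 5 of the 11 shared loops, STAT3 held 3, TYK2 2 and IFNAR2 1. IFNAR1, IFNGR2 and JAK1 had loops in both lists and shared none, which was true of 21.1% of all genes with loops in both lists.

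The receptor genes on chromosome 21 were described first. IFNAR2 (chr21:34577587-34637980), IFNAR1 (chr21:34696692-34732170) and IFNGR2 (chr21:34775719-34851655) are all on the plus strand in this order, with IL10RB, which encodes a chain shared by the interleukin-10 and interferon lambda receptors, between the first 2. In the window from 34565001 to 34855000 there were 11 WT loops and 14 STAG2-KD loops, with 4 in common, 7 in WT alone and 10 in STAG2-KD alone. The earlier 50% of lines held 3 and 9 of them, 2 in common. The window was set after the loops had been seen. No loop in either list had starts of 2 of the 9 genes at its ends, but with starts within 5 kb of an anchor 2 WT and 3 STAG2-KD loops joined starts of different receptor genes, 1 of them in both lists.

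**Figure D2:**
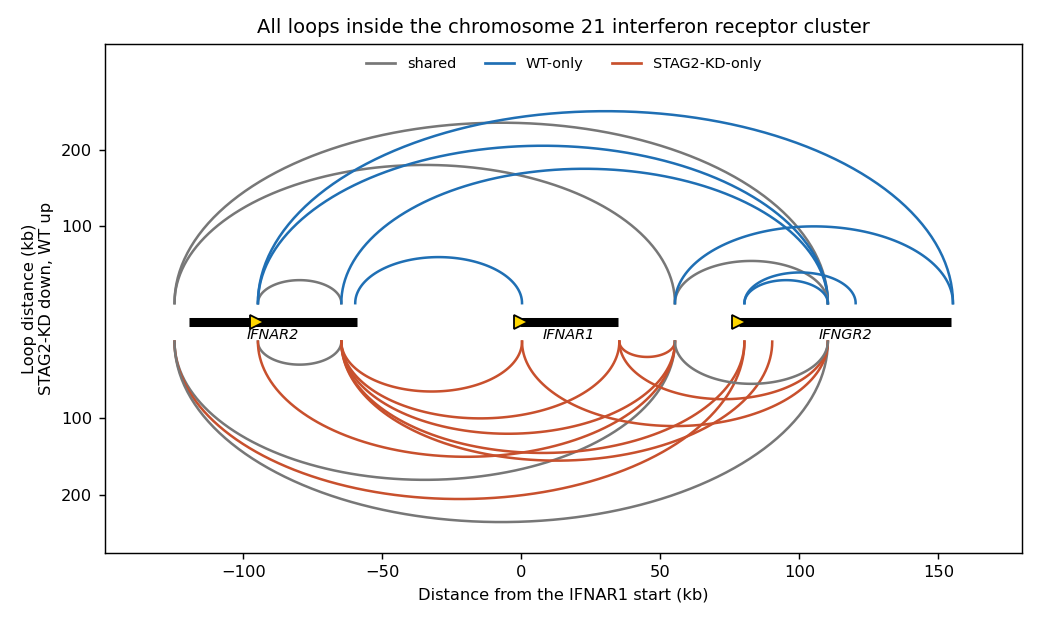
All loops with both anchors inside the receptor cluster, drawn as arcs against the distance from the IFNAR1 start in kb, with WT loops above and STAG2-KD loops below the genes; arc height is the distance between anchor midpoints, black bars are gene bodies and arrowheads the canonical starts. In STAG2-KD 6 arcs meet in the 3' part of IFNAR2, between its start and that of IFNAR1, where WT has 2.

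IFNAR2, the ligand-binding chain, looped from the anchor at 34600001 to 34605000. This anchor also holds starts of the readthrough gene IFNAR2-IL10RB, which cannot be told apart from IFNAR2 here. The shared loop ran 30 kb to 34630001 to 34635000, inside the IFNAR2 gene. The WT-only loops ran 205 kb to 34805001 to 34810000, inside IFNGR2 and, by its full gene record, TMEM50B on the other strand, and 250 kb to 34850001 to 34855000, at a start of TMEM50B. The STAG2-KD-only loop ran 150 kb to 34750001 to 34755000, an intergenic bin between IFNAR1 and IFNGR2. The bin of the upstream IFNAR2 start, 34575001 to 34580000, had 0 loops in both lists. The adjoining bin, 34570001 to 34575000, had 2 WT and 3 STAG2-KD loops, 2 of them shared. With starts within 5 kb of an anchor IFNAR2 had 5 WT and 5 STAG2-KD loops, 3 of them shared.

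IFNAR1, the other chain of the type I receptor, looped from 34695001 to 34700000. In WT its single loop ran 60 kb to 34635001 to 34640000, the bin of the IL10RB start. In STAG2-KD it had a loop of 65 kb that ended in the neighboring bin, 34630001 to 34635000, and a loop of 110 kb to 34805001 to 34810000 inside IFNGR2. With a tolerance of 1 bin the loops of 60 and 65 kb count as the same contact.

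IFNGR2, the second chain of the interferon gamma receptor, had 2 WT loops and 3 STAG2-KD loops, with no overlap in partners. Both WT loops ran downstream, 30 kb to 34805001 to 34810000 inside the gene and 40 kb to 34815001 to 34820000, which lies past the end of the canonical transcript and within the gene record only through a longer transcript. All 3 STAG2-KD loops ran upstream, past IFNAR1. They joined the start at 34775001 to 34780000 to 34630001 to 34635000 (145 kb) and to the intergenic bin 34570001 to 34575000 (205 kb), and the alternative start at 34785001 to 34790000 to 34630001 to 34635000 (155 kb). With a tolerance of 2 bins no IFNGR2 loop was shared, but with starts within 5 kb of an anchor the gene had 6 loops in WT and 7 in STAG2-KD, 2 of them shared. All 5 IFNGR2 loops stood in the later 50% of their list's lines for that chromosome. With the earlier lines alone 0 and 0 were left. What the order of the lines stands for was not stated.

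The bin from 34630001 to 34635000 therefore recurred as a partner of all 3 receptor genes. By the canonical transcript it holds 4869 bases of introns and 131 bases of exons of IFNAR2, and no annotated start. Of its 2 WT and 6 STAG2-KD loops, 1 was in both lists, 1 in WT alone and 5 in STAG2-KD alone. At least 5 STAG2-KD-only loops were found at 2.74% of the 30624 anchors of either list. The intergenic bin from 34750001 to 34755000 also had 5 STAG2-KD-only loops, with 3 loops in WT and 7 in STAG2-KD. These bins were singled out after their values had been seen. Among the earlier 50% of lines the bin inside IFNAR2 kept 1 loop in WT and 3 in STAG2-KD, and the intergenic bin 1 and 5.

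JAK1, the kinase common to the type I and interferon gamma receptors, lies on the minus strand (chr1:65298906-65533437) and had a loop at 2 of its 6 bins with starts. In WT its single loop left the distal start at 65530001 to 65535000 and ran 355 kb upstream to the starts of LEPR and LEPROT, which made it the longest loop of the 9 genes. In STAG2-KD the same anchor ran 110 kb to an intron of AK4. The second STAG2-KD loop joined the canonical start at 65430001 to 65435000 to an intron of JAK1 50 kb downstream. The canonical start had 0 loops in WT.

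TYK2, the kinase on the IFNAR1 chain, lies on the minus strand of chromosome 19 (chr19:10461209-10491284) and had 5 loops in WT and 2 in STAG2-KD. Both STAG2-KD loops were also in WT. They joined the canonical start at 10490001 to 10495000 to the start of ICAM1, 110 kb away, and to the start of CDC37, 20 kb away. ICAM1 encodes an adhesion molecule, and CDC37 a cochaperone of HSP90 for protein kinases. The WT-only loops ran from the same anchor to the starts of ICAM5 (90 kb) and RAVER1 (50 kb), and from an internal start at 10465001 to 10470000 to ICAM1 (85 kb). All 5 TYK2 loops had a protein-coding start at the partner. The ICAM1 anchor itself had 10 loops in each list.

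IFNGR1, the ligand-binding chain of the interferon gamma receptor (chr6:137518620-137540586), and JAK2, which pairs with IFNGR2 (chr9:4984390-5129948), had no loop at any start. No anchor of either list lay within 400 kb of their canonical starts, which was true of 7.13% of all protein-coding genes, a limit set with the distances of these genes known. The nearest anchor to IFNGR1 was 426 kb away in both lists. For JAK2 the WT distance was 450 kb and the STAG2-KD distance was 845 kb. The number of loops spanning these starts was 0 in both lists for both genes. With every annotated start counted, the interferon gamma receptor thus had loops at IFNGR2 and JAK1 and not at IFNGR1 or JAK2. Each of the type I receptor genes and its kinases then had at least 1 loop in each list. With canonical starts alone JAK1 had 0 loops in WT. The 5' end of the gene record alone left IFNAR2 with 0 in both lists, and the earlier 50% of lines left IFNGR2 with 0 in both.

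STAT2, the STAT of the type I interferon response, lies on the minus strand (chr12:56735381-56753987) in a gene-dense stretch, and all of its loops left the canonical start bin, 56750001 to 56755000. The 5 shared loops joined it to starts of PAN2 and IL23A (25 kb), TIMELESS (90 kb), ANKRD52 (100 kb), MIP and SPRYD4 (110 kb), and NABP2 and RNF41 (135 kb). The WT-only loops ran to CNPY2 (45 kb) and CS (60 kb), the citrate synthase gene. The STAG2-KD-only loops ran to another start bin of TIMELESS (60 kb), and to ESYT1 at 230 kb and at 240 kb, the latter bin also holding starts of RPL41 and ZC3H10. All 10 distinct loops had a protein-coding start at the partner. The longest WT loop was 135 kb and the longest STAG2-KD loop 240 kb. With a tolerance of 2 bins the shared number stayed at 5.

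**Figure D3:**
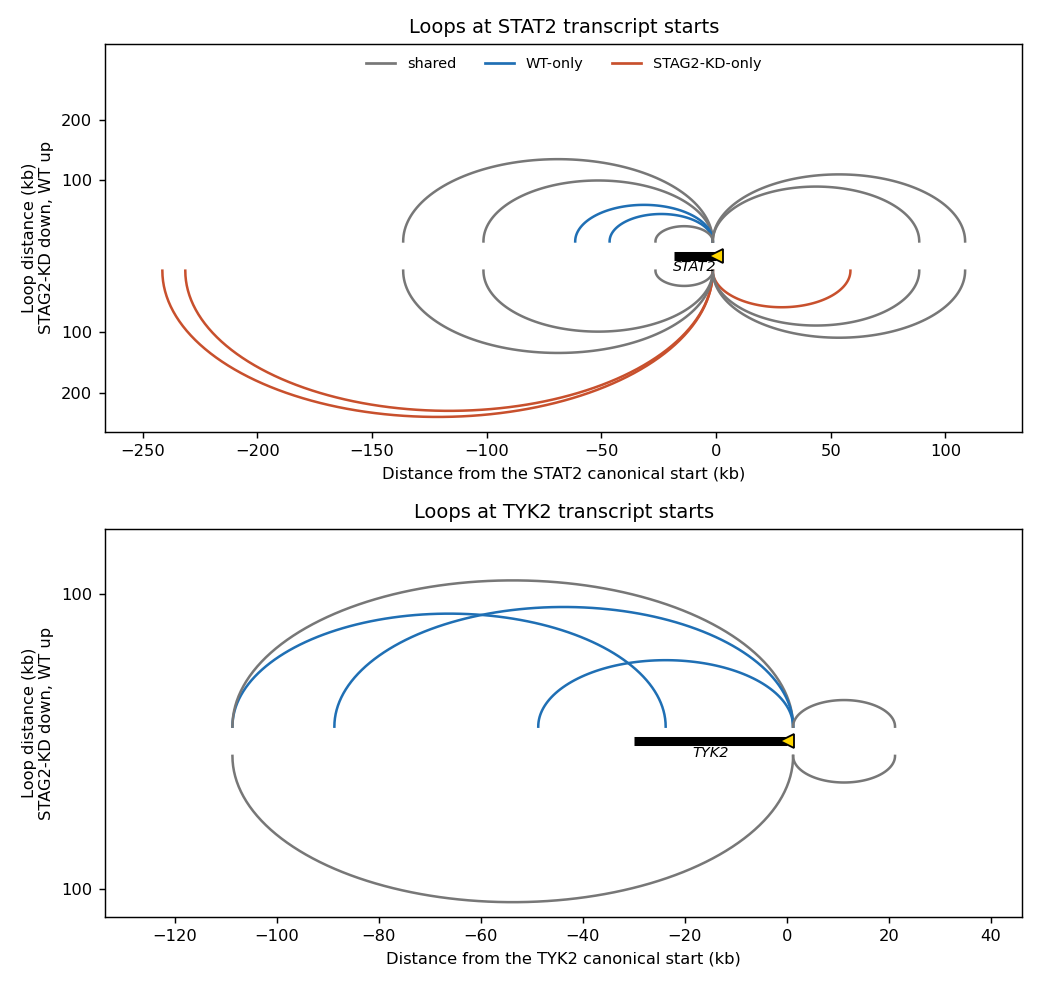
Loops at STAT2 (top) and TYK2 (bottom) starts as arcs against the distance from the canonical start in kb, WT above and STAG2-KD below, with arc height equal to loop distance and arrowheads marking the direction of transcription. STAT2 keeps 5 shared arcs and has arcs of 230 and 240 kb in STAG2-KD alone, and the 2 STAG2-KD arcs of TYK2 are both shared.

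STAT3 (chr17:40465342-40540558, minus strand) had loops at 4 of its 6 bins with starts, and the bins behaved differently. At the canonical start, 40540001 to 40545000, WT had 4 loops and STAG2-KD had 2, both shared, which ran 20 kb upstream into CAVIN1 and 30 kb downstream into STAT3 itself. The WT-only loops there ran to starts of CAVIN1 (35 kb), a gene for a caveolar coat protein, and ATP6V0A1 (130 kb), a subunit of the vacuolar proton pump. The internal bin at 40480001 to 40485000 had a shared loop of 30 kb to the same STAT3 intron and a WT-only loop of 235 kb to COASY and MLX. The bin at 40500001 to 40505000, with a start of a protein-coding transcript, had a single STAG2-KD-only loop of 60 kb into CAVIN1. Most STAT3 loops left the internal bin from 40470001 to 40475000, near the 3' end of the gene, where the annotation has 1 start, without a defined coding sequence.

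That internal anchor had 6 loops in WT and 5 in STAG2-KD, and shared none of them. Of the 1634 anchors with at least 5 loops in each list, 10 shared none (0.612%), this one among them. The anchor, and the minimum of 5 loops, were chosen after its values had been seen, so this percentage only describes it. Its WT partners were starts of STAT5A (35 kb), the body and a start of CAVIN1 (90 and 105 kb), and starts of RAB5C (165 kb), ATP6V0A1 (185 kb) and COASY with MLX (245 kb). Its STAG2-KD partners were the body of CAVIN1 (100 kb), an intergenic bin (115 kb), and starts of ATP6V0A1 (140 kb), RAB5C (190 kb) and COASY (240 kb). Within 1 bin 2 of the WT-only and 2 of the STAG2-KD-only loops had a partner in the other list, and within 2 bins 3 and 3. Counting starts of protein-coding transcripts alone removed it and left STAT3 with 4 WT loops and 3 STAG2-KD loops, 2 of them in common.

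**Figure D4:**
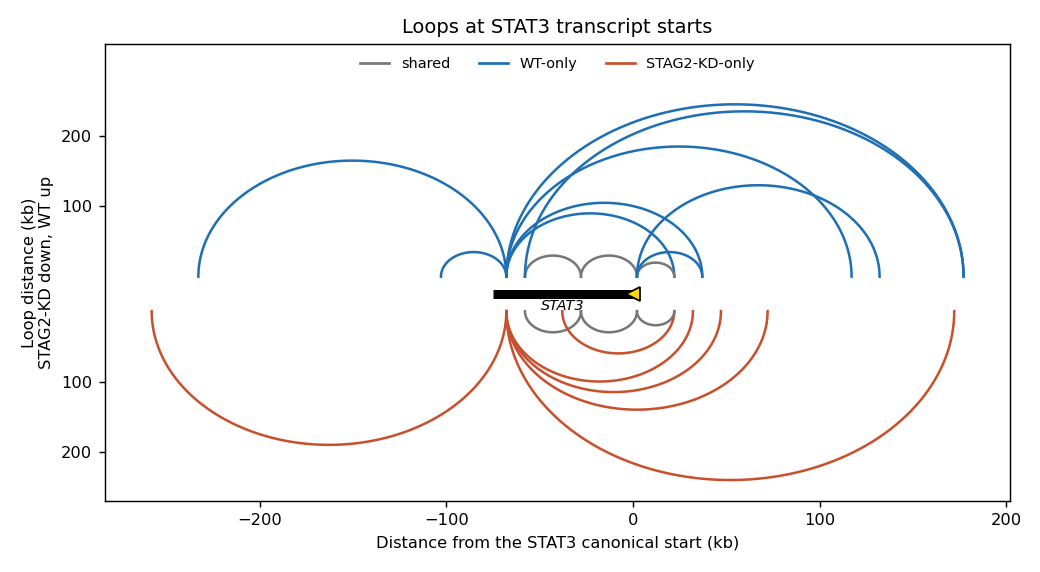
Loops at STAT3 starts as arcs against the distance from the canonical start in kb, WT above and STAG2-KD below, with arc height equal to loop distance. The internal anchor near the left end of the gene bar has 6 WT-only and 5 STAG2-KD-only arcs, and the canonical start has 2 shared and 2 WT-only arcs.

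The kinds of partner were compared next. In WT 23 of 31 loops had a protein-coding start at the partner anchor, which is 74.2% (55.4 to 88.1), and in STAG2-KD 13 of 28, which is 46.4% (27.5 to 66.1). Over all loops at protein-coding starts, counted once from each anchor with such a start, the partner held one in 51.2% and 50.4%. Among the private loops of the 9 genes, 16 of 20 WT-only loops (80.0%, 56.3 to 94.3) and 6 of 17 STAG2-KD-only loops (35.3%, 14.2 to 61.7) had a protein-coding start at the partner, beside 47.8% and 45.9% over all genes. The intervals overlapped, both for the complete sets and for the private loops. They treat loops as independent, although loops of a gene often leave the same anchor and shared loops stand in both complete sets. Overlap of intervals was not a test, so whether the lists differ in this share was not tested. On chromosome 21 such a partner was found for 2 of 6 loops in WT and 0 of 7 in STAG2-KD. Without that chromosome the shares were 84.0% (63.9 to 95.5) and 61.9% (38.4 to 81.9), again with overlapping intervals.

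Anchors of private loops were often anchors in the other list as well. For 16 of the 20 WT-only loops each anchor was also an anchor in STAG2-KD, and for 11 of the 17 STAG2-KD-only loops each was also one in WT. These are 80.0% (56.3 to 94.3) and 64.7% (38.3 to 85.8), beside 46.4% and 48.8% of the private loops at all protein-coding starts. A partner of the same anchor within 25 kb was present in the other list for 8 of the WT-only loops (40.0%, against 27.2% over all protein-coding starts) and 5 of the STAG2-KD-only loops (29.4%, against 28.9%). Partners lay upstream of the start in 25 of the 48 distinct loops.

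Distances of the member loops were listed by class. No class medians over all protein-coding starts stand beside them, so the differences cannot be called a trait of these genes. Shared loops had a median of 30 kb and a range of 20 to 135 kb, WT-only loops a median of 90 kb (30 to 355 kb) and STAG2-KD-only loops a median of 140 kb (50 to 240 kb). Over the complete sets the medians were 90 kb (WT) and 110 kb (STAG2-KD), against 90 kb and 85 kb for all loops at protein-coding starts. The 95% intervals of the member medians were 40 to 110 kb in WT and 60 to 140 kb in STAG2-KD. The WT median fell to 60 kb with protein-coding, 5' end or canonical starts alone, and in the earlier 50% of lines. The STAG2-KD median was then 105, 110, 100 and 95 kb. The quartiles of the members overlapped widely, at 35 to 132 kb in WT and 57.5 to 146 kb in STAG2-KD. Single genes went both ways. The longest loop was longer in STAG2-KD at IFNAR1, IFNGR2 and STAT2, shorter at IFNAR2, JAK1 and STAT3, and equal at TYK2. At STAT3 the longest loops were 245 kb (WT) and 240 kb (STAG2-KD), from the same anchor to neighboring bins.

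**Figure D5:**
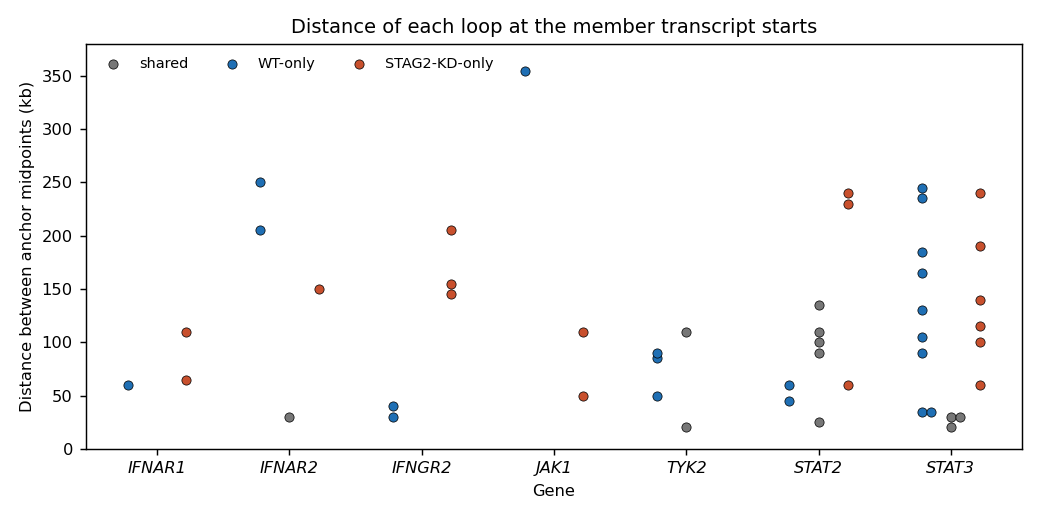
Distance between anchor midpoints in kb for each of the 48 distinct loops, by gene and class, each point being 1 loop. Shared loops (grey) lie between 20 and 135 kb, and the STAG2-KD-only loops of IFNGR2 (145 to 205 kb) lie above its WT-only loops (30 and 40 kb).

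CTCF, which halts cohesin on DNA, was examined only as letters in the sequence. A strict core of the CTCF motif, 12 letters long, was found in 4 of the 50 distinct anchors of these loops (8.0%), against 5.37% of WT anchors and 5.21% of STAG2-KD anchors over the complete lists. All 4 are printed to show which loop ends hold one, with the core in capitals and 10 bases on each side.

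STAT3 internal anchor, chr17:40474932-40474943, plus strand: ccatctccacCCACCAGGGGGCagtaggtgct

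STAT5A partner anchor of STAT3, chr17:40435127-40435138, plus strand: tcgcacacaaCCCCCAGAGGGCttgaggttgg

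ESYT1 partner anchor of STAT2, chr12:56520126-56520137, plus strand: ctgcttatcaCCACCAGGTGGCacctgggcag

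ICAM1 partner anchor of TYK2, chr19:10381748-10381759, plus strand: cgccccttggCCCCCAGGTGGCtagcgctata

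The STAT3 and STAT5A anchors were joined by a WT-only loop of 35 kb, and both matches lie on the plus strand. The ESYT1 anchor was the end of a STAG2-KD-only loop of STAT2, and the ICAM1 anchor was the end of both a shared and a WT-only loop of TYK2. A match says nothing of whether CTCF was bound there.

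Other genes of cytokine signaling were counted as a list of 26 receptors, kinases, STATs, inhibitors and phosphatases, of which 25 lie on chromosomes with loops. A loop was found at 16 of the 25 in WT and at 13 in STAG2-KD, and 10 had a shared loop. Over all protein-coding genes these shares were 39.1%, 36.8% and 24.7%. These genes had 42 WT loops and 38 STAG2-KD loops, 16 of them in common. More loops stood in WT at 9 of the listed genes and in STAG2-KD at 6, without a share over all genes to set beside them. The phosphatase gene PTPN1 had 4 in WT and 8 in STAG2-KD, and STAT6 had 6 and 3. JAK3, the remaining JAK kinase, had 0 in WT and 2 in STAG2-KD. STAT5A, next to STAT3, had 5 and 6 with 3 shared, and STAT5B had 0 in both. Of the inhibitors that these pathways induce, SOCS1 had 2 and 2, and SOCS3 had 1 and 0. These genes were named after their values had been seen.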

How the data were processed

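H3K27ac HiChIP of M14 cells was analysed from one loop list per group. Samples were grouped by their titles. Per the study's methods, the authors digested chromatin with MboI, aligned reads to hg19 with HiC-Pro, and used hichip-peaks for peaks and FitHiChIP for loops; versions were not given in the sources used here. The deposited lists have 3 columns of positions, with no count, score or q-value, so the read depth behind a loop was unknown. Whether replicates were merged was not stated.

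Each anchor was read as 5 kb wide. Starts came from GENCODE release 44 lifted to GRCh37, the same build as hg19. A loop belonged to a gene when any annotated transcript start lay in an anchor, and was shared when the lists had it with identical bins. Shares carry exact Clopper-Pearson intervals at 95%, and counts exact Poisson intervals, which cover counting error only. No test was run, because each group had 1 list. Member and pathway genes, and the rule naming partner genes (every protein-coding gene starting at an anchor), were chosen with earlier results of these data known. Matching functions were tested on simulated data. Alternatives changed the tolerance, the starts counted, the lines kept and the members. Some planned marker and sequence results are not reported here. Computation used Python 3.11.15, numpy 2.4.6, scipy 1.17.1 and matplotlib 3.10.9.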

Additional observations from a re-analysis of the deposited data

How the results depend on the processing

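No paired analysis was possible because there was only a single list of loops for WT and a single one for STAG2-KD. For the same reason no replicate was left out. The lists hold positions only, so read depth gives no interval, and the loops of a gene are not independent of each other. Canonical starts alone were added as an alternative once the data had been examined, and the other alternatives were planned.

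Of 63 values recomputed under alternatives, 46 stayed within 1.5 times the reported number or, for medians and percentages, inside the 95% interval, and 17 did not. Starts of protein-coding transcripts alone left 13 WT-only loops. The 5' end of the gene record alone left 19 loops in WT, 17 in STAG2-KD, 10 WT-only and 8 STAG2-KD-only, with 0 at IFNAR2 in both lists and 4 and 2 at STAT3. Canonical starts alone left 11 loops in WT alone and 9 in STAG2-KD alone. The earlier 50% of lines left 15 loops in WT, 18 in STAG2-KD, 7 shared, 8 WT-only and 11 STAG2-KD-only, so that the STAG2-KD list then held more loops at these genes than the WT list. Without the chromosome 21 cluster 11 STAG2-KD-only loops were left. All of these have fewer starts, lines or genes by construction. The percentage of all protein-coding genes with a loop was 35.9% in WT and 33.7% in STAG2-KD for protein-coding starts, and 48.4% and 46.4% for starts within 5 kb of an anchor. Tolerances of 1 and 2 bins gave 14 and 16 shared loops. The limit of 500 kb removed no loop. Leaving out the cluster turned no order between the lists.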
